A study of Mus musculus with 24 samples.

Results

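The regional identity of the brain was read from 10 of the 24 libraries of the series, those of sham-operated animals taken from the hippocampus (5 libraries) and from the cortex (5 libraries). The libraries were chosen by the tissue and treatment that the labels give. All came from wild-type mice that had a sham operation in place of removal of the olfactory bulbs, and RNA was sequenced from each dissected tissue. Strain, age, sex, pooling and the animal behind each library are not given in the labels, so p-values measure the spread between these libraries, which may in part be technical. The series asks what bulb removal does to the brain, and its hippocampus (4) and cortex (3) libraries of bulbectomised wild-type mice are used below for a single repeat of the regional comparison. The cerebellum libraries are not described here.

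The hippocampus is a folded sheet of cortex in which excitatory neurons form a circuit from the granule cells of the dentate gyrus through the pyramidal cells of CA3 and CA2 to those of CA1, and each field has its own set of expressed genes. The neocortex is layered, and its projection neurons are specified by layer-selective transcription factors such as Cux2, Rorb, Fezf2 and Tbr1. The dissected hippocampus borders the thalamus, the habenula, the ventricle wall with its ciliated ependyma and the choroid plexus, which makes cerebrospinal fluid, and white matter tracts full of myelin run along it.

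Libraries held 3255661 to 138963332 reads assigned to genes in the hippocampus and 10073878 to 17052728 in the cortex. Hippocampus sham 4 was the deepest and hippocampus sham 1 the shallowest; 3 reads corresponded to 0.0187 to 0.918 CPM, the unit of all levels below (a gene's count relative to its library's size, scaled between libraries by trimmed means of M-values). Mitochondrial transcripts took 4.39% to 13.3% of assigned reads. Before any comparison, 2 libraries went against their label in part. The library labelled hippocampus sham 2 had the dentate gyrus gene Prox1 at 3.44 CPM, inside the cortex range of 3.28 to 5.80 CPM. Its mean log2 CPM over the dentate granule cell genes, 2.98, was below the cortex range of 3.37 to 3.66, while the other 4 hippocampus libraries lay at 3.90 to 4.24. Genes of striatal medium spiny neurons, the main cell type of the neighbouring striatum, had a mean log2 CPM of 7.18 in hippocampus sham 1 and 7.40 in hippocampus sham 2. The same genes lay at 3.55 to 3.94 in hippocampus sham 3 to 5 and 3.87 to 4.64 in the cortex. Over all genes tested, no hippocampus library had a higher median rank correlation with its own group (0.936 to 0.96) than with the cortex (0.942 to 0.961). Cortex libraries had 0.975 to 0.98 with their own group and 0.939 to 0.958 with the hippocampus. The name hippocampus sham 2 below stands for the library so labelled. A second fit left out hippocampus sham 1 and 2, and its values stand beside many of those from all libraries.

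Of 14271 genes tested, 448 were higher and 417 lower in the hippocampus than in the cortex (quasi-likelihood test of edgeR, adjusted p under 0.05 after Benjamini-Hochberg), which is 3.14% and 2.92% of the genes tested. Among them 289 (2.03%) were more than 2-fold higher and 191 (1.34%) more than 2-fold lower. Without hippocampus sham 1 and 2, 581 were higher and 613 lower among 14984 genes, or 3.88% and 4.09%. The calls common to both fits numbered 371 higher genes, 82.8% of the first list and 63.9% of the second, and 358 lower genes, 85.9% and 58.4%. All 5 hippocampus libraries lay above all 5 cortex libraries for 3.32% of the genes tested and below them for 3.45%. In all that follows, called, rose and fell refer to edgeR unless another tool is named. Leaving out a single library moved a count by more than 1.5 times in 5 cases: 565 genes in all and 244 lower genes without hippocampus sham 5, 268 without cortex sham 1 and 270 without cortex sham 5, and 294 higher genes without cortex sham 4. Of 90 called genes checked in this way, 88 to 90 passed the low-count filter in each fit without 1 library. Of the 90, 67 were called in every such fit that tested them. The other 23 lost the call without at least 1 library: without any 1 of 9 libraries for Gabra5 and Lrrc55, 8 for Cacng5 and Six3, 7 for Col1a2 and Hsd11b1, 5 for Kcng1 and Plxnd1, 4 for Adra2c, Egr3, Fzd3 and Gria2, 3 for Adrb1, Crhr1, Gabrb2, Grin2b and Sox4, 2 for Gria1 and Tmem196, and 1 for Cacng3, Dcx, Fibcd1 and Sema4d. Their highest adjusted p then lay between 0.0529 and 0.136. The strand setting of the counting is not known, and exon bases lying opposite another gene made up 10.5% to 25.4% in Arhgap10, Nwd2, Bcas1, Ppp1r1b, Slc9a4 and Homer3, so their counts may hold reads of a neighbour. The median log2 fold change of all genes tested was 0.05. Fold changes are hippocampus minus cortex on the log2 scale, with the standard error (SE) of the same fit.

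Granule cell genes Prox1, C1ql2 and Lct were higher in the hippocampus, and Dsp joined them once hippocampus sham 1 and 2 were left out. Prox1 (ENSMUSG00000010175, chromosome 1, 190118035 to 190170714), the homeobox transcription factor that maintains granule cell identity, had 35.8, 3.44, 16.5, 26.7 and 18.5 CPM in hippocampus sham 1 to 5, against 4.41, 3.28, 4.25, 4.35 and 5.80 CPM in cortex sham 1 to 5, listed by replicate number. Apart from the library labelled hippocampus sham 2, every hippocampus value exceeded every cortex value. The log2 fold change of Prox1 was 2.18 ± 0.43, adjusted p = 0.00887, and 2.22, adjusted p = 6.89e-05 without hippocampus sham 1 and 2. In bulk tissue, a difference in the number of cells of a type and one in RNA per cell cannot be told apart. C1ql2 (ENSMUSG00000036907, chromosome 1, 120340582 to 120343174), a secreted C1q-like protein of the mossy fibre synapses that granule cells make onto CA3, had 43.2, 13.4, 86.6, 62.4 and 105 CPM in the hippocampus, against 6.40, 5.78, 8.38, 5.34 and 5.86 CPM in the cortex. The groups did not overlap, with hippocampus sham 2 the lowest of its group, and the log2 fold change was 3.29 ± 0.43, adjusted p = 0.000948. Leaving out both libraries raised it to 3.72, adjusted p = 6.68e-07. Lct, the lactase gene, had 18.7, 1.54, 30.5, 23.9 and 33.5 CPM in the hippocampus, against 1.05, 1.58, 3.17, 2.99 and 3.12 CPM in the cortex, with hippocampus sham 2 inside the cortex range. Its log2 fold change was 3.16 ± 0.63, adjusted p = 0.0134. Dsp (ENSMUSG00000054889, chromosome 13, 38151294 to 38198577), which encodes the desmosome protein desmoplakin, had 23.0, 0.474, 9.25, 17.5 and 9.30 CPM in the hippocampus, against 0.105, 0.328, 0.0635, 0.285 and 0.187 CPM in the cortex. The low-count filter of the fit of all libraries left Dsp untested; without hippocampus sham 1 and 2 its log2 fold change was 5.90 ± 0.40, adjusted p = 2.71e-06. Dsp passed the filter there only through hippocampus sham 3 to 5, so the filter fixed its direction.

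Of the 14 listed granule cell genes, 12 were tested, 3 rose and 1 fell (Npnt, an extracellular matrix protein gene, -0.66 ± 0.18, adjusted p = 0.0424, named after its value was seen), with a median log2 fold change of -0.11 against 0.05 for all genes. Without hippocampus sham 1 and 2, 4 of 13 rose, Dsp among them, and 1 fell. The 14 listed genes summed to 282 to 449 CPM in the hippocampus and 284 to 370.4 CPM in the cortex. Among genes of adult neurogenesis, Igfbpl1, an insulin-like growth factor binding protein-like gene of young neurons, was higher in all hippocampus libraries at 0.918 to 1.66 CPM, against 0 to 0.285 CPM in the cortex (3.24 ± 0.56, adjusted p = 0.00331). The cortex values, and that of hippocampus sham 1, correspond to at most a few reads. Igfbpl1 passed the low-count filter only through the hippocampus libraries, so the filter fixed its direction and its call is no separate result. Dcx, the microtubule protein doublecortin of migrating neurons, was lower in the hippocampus, at 0.855 to 2.01 CPM against 2.92 to 5.30 CPM in the cortex (-1.27 ± 0.30, adjusted p = 0.0191). Sox4, a transcription factor of immature neurons, was lower as well (-0.79 ± 0.18, adjusted p = 0.0197); 54.6% of its exon bases lie opposite another gene. The list of 12 had 10 tested members, of which 2 rose, Igfbpl1 among them, and 2 fell, and its median was -0.06.

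**Figure D1:**
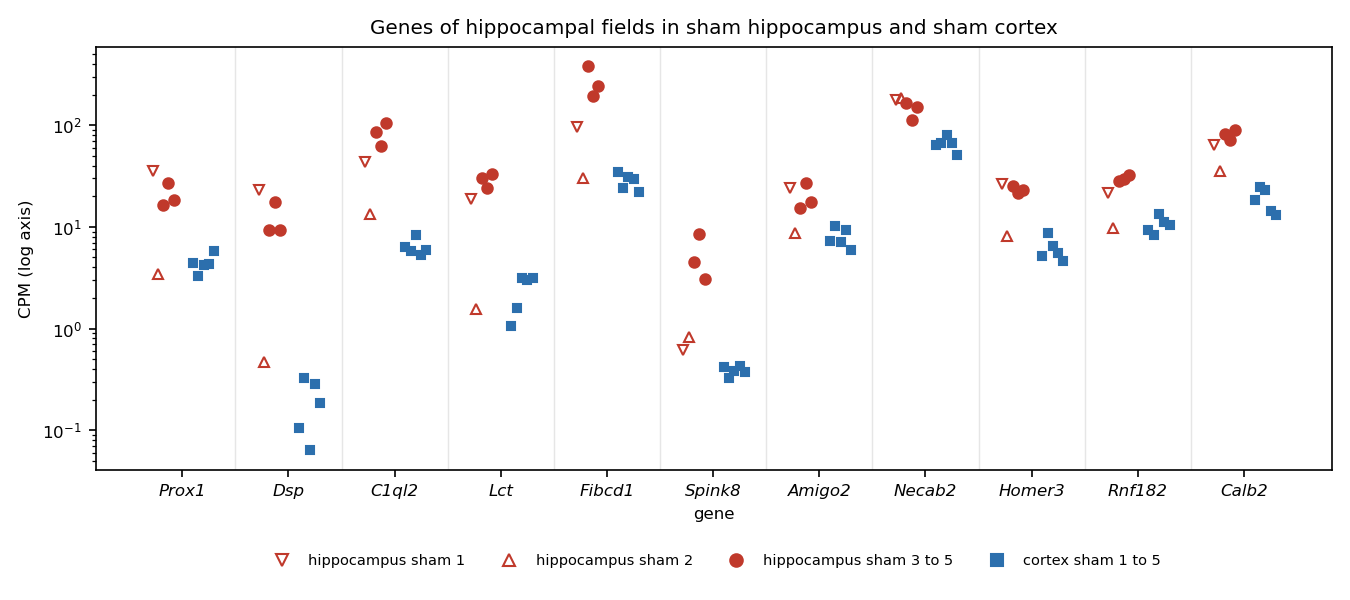
Levels of 11 genes of hippocampal fields in each sham library, in CPM on a log axis; red symbols are hippocampus libraries (open triangles: sham 1 and 2) and blue squares cortex libraries. Hippocampus sham 2 lies inside the cortex range for Prox1, Lct, Fibcd1, Amigo2, Homer3 and Rnf182, while hippocampus sham 3 to 5 lie above all cortex libraries for each gene shown.

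Pyramidal cell genes of the CA fields were higher for a part of each list. Fibcd1 (ENSMUSG00000026841, chromosome 2, 31813290 to 31846005), which encodes a membrane receptor for acetylated ligands and is a CA1 marker, had 96.1, 30.6, 380.3, 193 and 245 CPM in the hippocampus, against 34.4, 23.96, 31.0, 29.6 and 22.0 CPM in the cortex. Hippocampus sham 2 was inside the cortex range and the other 4 above it, and the log2 fold change was 2.75 ± 0.55, adjusted p = 0.0165, or 3.25, adjusted p = 2.54e-06 without hippocampus sham 1 and 2. Spink8, a Kazal-type protease inhibitor gene of CA1, had 0.612, 0.830, 4.50, 8.50 and 3.10 CPM in the hippocampus, against 0.420, 0.328, 0.381, 0.427 and 0.374 CPM in the cortex. It entered the fit without hippocampus sham 1 and 2 only, with a log2 fold change of 3.82 ± 0.38, adjusted p = 5.36e-05. Like Dsp, it passed the filter there only through hippocampus sham 3 to 5, which fixed its direction. Wfs1, the endoplasmic reticulum protein wolframin and a CA1 gene, had 129 to 272 CPM in the hippocampus and 138 to 207 CPM in the cortex and was not called (0.30 ± 0.20, adjusted p = 0.475). Of 6 CA1 genes tested 1 rose and 1 fell, and without hippocampus sham 1 and 2, 3 of 7 rose and 1 fell. The third that rose there was the POU-domain factor Pou3f1 (0.81, adjusted p = 0.0368), which DESeq2 called with all libraries, at 0.69 (adjusted p = 0.0233).

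In the CA2 list, 3 of 6 tested genes rose and none fell. Necab2, a neuronal calcium-binding protein gene, had 175, 183, 164, 113 and 152 CPM in the hippocampus, against 64.4, 66.6, 79.5, 66.2 and 51.4 CPM in the cortex. All hippocampus libraries were above all cortex libraries, and the log2 fold change was 1.26 ± 0.17, adjusted p = 0.000629. Hippocampus sham 1 and 2, the libraries high in striatal genes, had the highest Necab2 levels. Without them its log2 fold change was 1.10, adjusted p = 0.00109. Amigo2, a leucine-rich adhesion protein gene known from CA2 and CA3, had 8.65 to 27.2 CPM in the hippocampus and 5.98 to 10.2 CPM in the cortex (1.22 ± 0.27, adjusted p = 0.0153). Cacng5, an auxiliary subunit of AMPA receptors, was called with all libraries (0.82 ± 0.22, adjusted p = 0.0382) and not without hippocampus sham 1 and 2 (0.77, adjusted p = 0.0745). In the CA3 list, 2 of 9 rose and none fell, and without hippocampus sham 1 and 2, 4 rose and 1 fell. Homer3, a postsynaptic scaffold gene, had 26.3, 8.06, 25.1, 21.4 and 23.1 CPM in the hippocampus, against 5.14, 8.80, 6.41, 5.56 and 4.61 CPM in the cortex, with a log2 fold change of 1.76 ± 0.29, adjusted p = 0.00245. Only the library labelled hippocampus sham 2 overlapped the cortex. Rnf182, a ubiquitin ligase gene, rose too, again with hippocampus sham 2 alone inside the cortex range (1.21 ± 0.27, adjusted p = 0.0141). Grik4, the kainate receptor subunit concentrated in CA3, had 36.7, 23.3, 68.6, 48.8 and 51.8 CPM in the hippocampus, against 22.2, 33.6, 33.5, 29.0 and 17.6 CPM in the cortex. It was not called with all libraries (0.76 ± 0.26, adjusted p = 0.112) and rose without hippocampus sham 1 and 2 (1.03, adjusted p = 0.00746). Calb2, which encodes the calcium buffer calretinin of mossy cells, had 63.7, 35.1, 81.2, 71.3 and 89.9 CPM in the hippocampus, against 18.3, 24.8, 22.8, 14.4 and 13.2 CPM in the cortex, without overlap and with a log2 fold change of 1.87 ± 0.25, adjusted p = 0.0007. Thalamic neurons and interneurons also express calretinin.

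For a pair of regulators known to be enriched in the hippocampus, the call depended on the tool and on hippocampus sham 2. With all libraries edgeR called neither, while DESeq2 called both, with log2 fold changes of 0.69 (adjusted p = 0.0454) for Zbtb20 and 1.31 (adjusted p = 0.00894) for Nr3c2. Once hippocampus sham 2 was left out, alone or with hippocampus sham 1, edgeR called both. Zbtb20, a zinc finger repressor needed for hippocampal development, had 41.6, 17.4, 25.8, 40.2 and 26.5 CPM in the hippocampus, against 22.3, 16.1, 14.7, 18.2 and 21.01 CPM in the cortex. The edgeR log2 fold change was 0.71 ± 0.23, adjusted p = 0.0844 with all libraries, 0.85 (adjusted p = 0.023) without hippocampus sham 2 and 0.73, adjusted p = 0.0425 without the pair. Nr3c2, the mineralocorticoid receptor, had 56.0, 7.94, 27.4, 49.96 and 29.2 CPM in the hippocampus, against 18.2, 10.96, 9.71, 11.8 and 17.2 CPM in the cortex. Hippocampus sham 2 was the lowest of all 10 libraries, and the log2 fold change was 1.32 ± 0.40, adjusted p = 0.0714 with all libraries, 1.57 (adjusted p = 0.0022) without hippocampus sham 2 and 1.39, adjusted p = 0.00397 without the pair. In the same hormone system, Hsd11b1, the enzyme that regenerates active glucocorticoid, was higher in the hippocampus at 7.70 to 16.8 CPM against 4.77 to 9.97 CPM in the cortex (0.96 ± 0.25, adjusted p = 0.0362). The CRH receptor Crhr1 was lower, at 8.57 to 21.8 CPM against 22.2 to 33.0 CPM (-0.96 ± 0.24, adjusted p = 0.0275).

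The cortical transcription factor genes Mef2c, Cux2, Tbr1 and Rorb were lower in the hippocampus. Mef2c (ENSMUSG00000005583, chromosome 13, 83504034 to 83667080), an activity-regulated MADS-box factor of cortical excitatory neurons, had 63.4, 102, 58.5, 47.2 and 48.6 CPM in the hippocampus, against 276, 263, 237, 250.3 and 259 CPM in the cortex. The groups were far apart, hippocampus sham 2 being the highest of its tissue, with a log2 fold change of -2.01 ± 0.20, adjusted p = 0.000235, and -2.34, adjusted p = 2.54e-06 without hippocampus sham 1 and 2. Cux2 (ENSMUSG00000042589, chromosome 5, 121856366 to 122050102), the homeobox factor of upper-layer neurons, had 29.7, 37.4, 40.3, 23.8 and 30.0 CPM in the hippocampus, against 89.3, 123, 103, 83.8 and 87.5 CPM in the cortex, a log2 fold change of -1.60 ± 0.17, adjusted p = 0.000316. Tbr1 (ENSMUSG00000035033, chromosome 2, 61802930 to 61814114), a T-box factor of deep-layer neurons, had 18.7, 52.0, 44.4, 32.0 and 26.4 CPM in the hippocampus, against 118, 115, 117, 105 and 105 CPM in the cortex, a log2 fold change of -1.68 ± 0.22, adjusted p = 0.0007. Rorb, the nuclear receptor of layer 4, had 3.20 to 5.88 CPM in the hippocampus and 11.6 to 22.1 CPM in the cortex (-1.93 ± 0.23, adjusted p = 0.000419). None of these 4 genes had overlapping groups. Of 57 forebrain transcription factor genes tested, 3 rose, 18 fell and the median was -0.36. The 3 that rose were Prox1, Tshz2 and Hopx, the last named after its value was seen. Without hippocampus sham 1 and 2, 8 rose and 21 fell.

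The promoters of Prox1 and Cux2, transcription factor genes that move in opposite directions between the tissues, are shown to give both regulators in sequence. RefSeq windows on GRCm38.p6 run from 250 bases before to 50 bases after a transcript start. The E-box CAGATG, read on both strands, is a preferred site of neuronal bHLH factors and is in capitals (its reverse complement reads CATCTG). It was found in 1 of 2 windows of each gene, at chr1:190170778-190171077 and chr5:122047776-122048075, both on the minus strand.
Prox1: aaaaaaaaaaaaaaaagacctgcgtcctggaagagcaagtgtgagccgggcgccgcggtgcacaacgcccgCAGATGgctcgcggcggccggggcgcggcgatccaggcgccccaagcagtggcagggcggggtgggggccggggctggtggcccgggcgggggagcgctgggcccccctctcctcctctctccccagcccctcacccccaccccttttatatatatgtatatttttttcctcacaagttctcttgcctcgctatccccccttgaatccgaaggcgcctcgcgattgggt
Cux2: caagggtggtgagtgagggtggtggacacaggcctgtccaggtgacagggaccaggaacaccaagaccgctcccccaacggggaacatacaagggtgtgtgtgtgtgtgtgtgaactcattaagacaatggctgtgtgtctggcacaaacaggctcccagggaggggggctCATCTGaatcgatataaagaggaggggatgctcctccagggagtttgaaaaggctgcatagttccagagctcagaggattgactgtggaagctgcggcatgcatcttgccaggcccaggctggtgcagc
The E-box was in 17.2% of all 32851 windows and in at least 1 window of 12 of the 46 forebrain transcription factor genes that have one, where 19.2% of all genes do. A match is a description of letters and not of binding.

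Layer lists differed in how far they separated the tissues. Of 8 layer 2/3 genes tested, 5 fell and none rose, with a median log2 fold change of -0.95, and 7 fell and 1 rose without hippocampus sham 1 and 2. Stard8, a GTPase-activating protein gene, had 12.9 to 16.9 CPM in the hippocampus and 32.4 to 42.4 CPM in the cortex (-1.32 ± 0.15, adjusted p = 0.00038). Rasgrf2, a Ras exchange factor gene of upper layers, had 48.5 to 76.8 CPM against 107 to 158 CPM (-1.10 ± 0.16, adjusted p = 0.00121). In layer 4, Rorb and the potassium channel gene Kcnh5 (-2.01 ± 0.31, adjusted p = 0.00164) fell among 5 tested. The Wnt agonist gene Rspo1 joined them without hippocampus sham 1 and 2 (-2.18, adjusted p = 0.000327). Of 10 layer 5 genes tested none fell and Tshz2, a zinc finger gene, rose (0.97 ± 0.16, adjusted p = 0.00312), though 67.5% of its exon bases lie opposite another gene. Without the pair of libraries, 3 of the 10 rose and 2 fell. Fezf2, the selector of subcortical projection neurons, had 12.5, 14.6, 31.4, 36.8 and 28.4 CPM in the hippocampus, against 20.1, 16.5, 25.7, 16.7 and 21.01 CPM in the cortex. Hippocampus sham 1 and 2 were below every cortex library and hippocampus sham 3 to 5 above every one. It was not called with all libraries (0.33 ± 0.26, adjusted p = 0.556) and was higher in the hippocampus without hippocampus sham 1 and 2 (0.68, adjusted p = 0.0322). None of the 9 layer 6 and subplate genes was called with all libraries, and 3 fell without the pair.

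**Figure D2:**
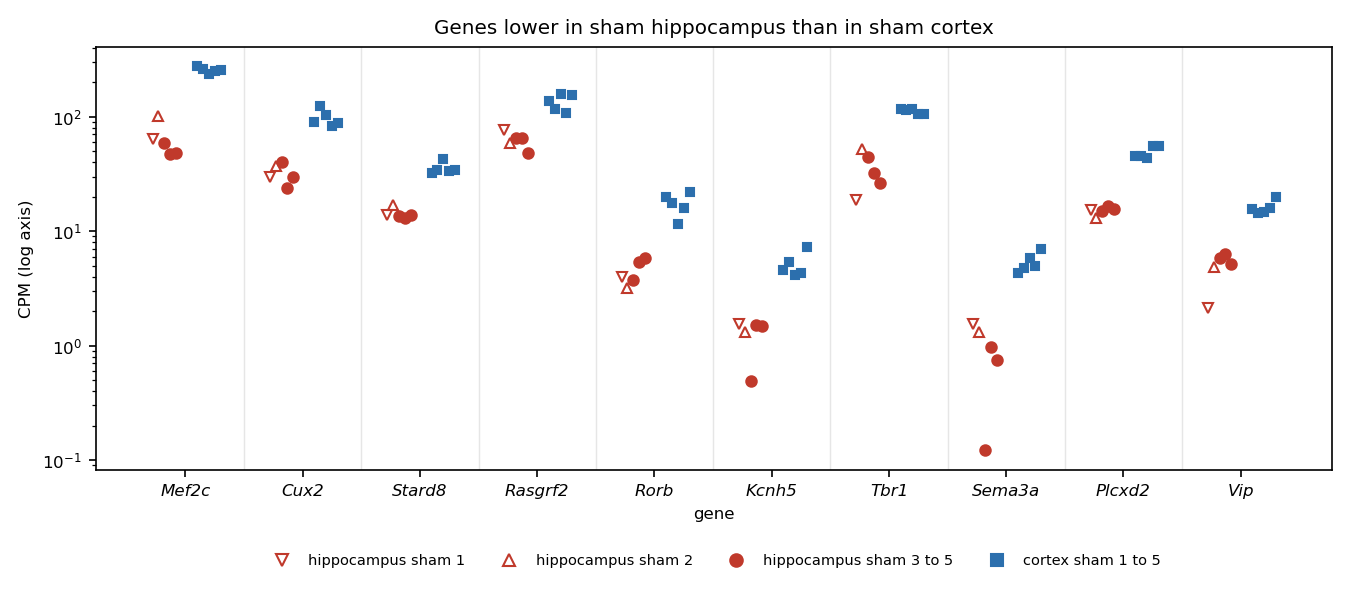
Levels of 10 genes that were lower in the hippocampus, in CPM on a log axis, with hippocampus libraries in red (open triangles: sham 1 and 2) and cortex libraries as blue squares. For all 10 the hippocampus libraries, sham 1 and 2 included, lie below every cortex library, as for 3.45% of all genes tested. The 10 were picked among genes called lower, Sema3a by a rule that asks for no overlap.

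The other lower genes of smallest p encode enzymes, membrane proteins and cytoskeletal regulators. Plcxd2 (ENSMUSG00000087141, chromosome 16, 45959263 to 46010218), a phospholipase-domain gene, had 15.3, 12.9, 14.96, 16.5 and 15.7 CPM in the hippocampus, against 45.4, 45.0, 43.2, 55.4 and 55.6 CPM in the cortex, a log2 fold change of -1.70 ± 0.15, adjusted p = 0.000138. The values of each tissue were closely grouped. Tmem132d, a membrane protein gene, fell by 1.45 on the log2 scale, the formin gene Fhod3 by 1.53, the NACHT and WD repeat gene Nwd2 by 1.62 and the Nemo-like kinase gene Nlk by 1.48. Their edgeR adjusted p lay between 0.000316 and 0.000451, and every one had groups without overlap. Lower genes were also ranked by fold change among called genes without predicted names, without overlap and with a cortex mean of at least 1 CPM. The 5 lowest were Sema3a, a repulsive axon guidance ligand (-2.59 ± 0.38, adjusted p = 0.0012), Hfe2, which encodes hemojuvelin (-2.39 ± 0.44, adjusted p = 0.00539), the erg-type potassium channel gene Kcnh7 (-2.30 ± 0.33, adjusted p = 0.000948), the BMP antagonist gene Chrdl1 (-2.29 ± 0.31, adjusted p = 0.000796) and Tmem196 (-2.27 ± 0.54, adjusted p = 0.0208). Hfe2 and Tmem196 were too low in the hippocampus to pass the low-count filter without the cortex libraries, which fixed their direction. Sema3a had 0.122 to 1.53 CPM in the hippocampus and 4.30 to 7.04 CPM in the cortex.

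Some adhesion and guidance genes were called, where 6.06% of all genes tested were called in either direction. Of 22 semaphorin, plexin and neuropilin genes Sema4d rose (0.61 ± 0.14, adjusted p = 0.0147) and Sema3a and the receptor gene Plxnd1 (-1.03 ± 0.25, adjusted p = 0.0232) fell, and without hippocampus sham 1 and 2, 4 rose and 3 fell. Of 18 Eph and ephrin genes the ligand gene Efnb3 rose and the ligand gene Efna5 fell (-1.66 ± 0.26, adjusted p = 0.00172). Efnb3 (ENSMUSG00000003934, chromosome 11, 69554092 to 69560205) had 187, 139, 184, 156 and 207 CPM in the hippocampus, against 72.0, 56.8, 72.1, 61.6 and 62.4 CPM in the cortex, a log2 fold change of 1.42 ± 0.15, adjusted p = 0.000235. Of 16 cadherins Cdh6 (-1.50 ± 0.28, adjusted p = 0.00526) and Cdh12 (-1.85 ± 0.36, adjusted p = 0.00669) fell and none rose, against 4 that fell and 1 that rose without the pair. Of 20 Wnt pathway genes 1 rose and 3 fell, among them the ligand gene Wnt9a (-1.37 ± 0.17, adjusted p = 0.000538) and the Frizzled receptor gene Fzd3 (-1.20 ± 0.30, adjusted p = 0.0275). Fzd3 was not called without hippocampus sham 1 and 2 (-1.17, adjusted p = 0.0669), where 1 of 21 Wnt pathway genes rose and 4 fell. The medians of these 4 lists lay between -0.16 and 0.13.

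The 10 higher genes of smallest p included Rem2, Doc2b and Hpca. Rem2 (ENSMUSG00000022176, chromosome 14, 54476100 to 54480431), an RGK-family GTPase that restrains calcium channels, had 25.4, 36.7, 19.2, 17.5 and 22.2 CPM in the hippocampus, against 3.99, 3.41, 2.79, 3.35 and 5.61 CPM in the cortex. Hippocampus sham 1 and 2 were the highest, all hippocampus libraries were above all cortex libraries, with a log2 fold change of 2.65 ± 0.25, adjusted p = 0.00022. Doc2b (ENSMUSG00000020848, chromosome 11, 75768966 to 75796049), a calcium sensor of neurotransmitter release, had 94.0, 44.2, 60.5, 69.9 and 58.0 CPM in the hippocampus, against 17.8, 14.2, 18.5, 13.9 and 19.9 CPM in the cortex, a log2 fold change of 1.95 ± 0.20, adjusted p = 0.000235. Hpca (ENSMUSG00000028785, chromosome 4, 129111570 to 129122036), which encodes the calcium sensor hippocalcin, had 1221, 1178, 1341, 1352 and 1095 CPM in the hippocampus, against 560.4, 536, 608, 472 and 543 CPM in the cortex, a log2 fold change of 1.19 ± 0.14, adjusted p = 0.00038. All 3 stood above the cortex in hippocampus sham 1 and 2 as well. The immunoglobulin superfamily gene Igsf1 (2.26 ± 0.26, adjusted p = 0.00038) and the tubulin-binding protein gene Tppp3 (1.37 ± 0.16, adjusted p = 0.000419) were also among the 10. Agt, the angiotensin precursor that astrocytes make in the brain, had 194, 124, 271, 93.0 and 274 CPM in the hippocampus, against 32.4, 41.5, 41.0, 34.5 and 23.7 CPM in the cortex, a log2 fold change of 2.46 ± 0.29, adjusted p = 0.00038.

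Most myelin genes rose. Of 14 mature oligodendrocyte genes tested, 12 rose, none fell and the median log2 fold change was 1.38, and without hippocampus sham 1 and 2, 12 of 14 rose at a median of 1.26. Mog (ENSMUSG00000076439, chromosome 17, 37010743 to 37023398), the myelin oligodendrocyte glycoprotein, had 114, 107, 101, 71.0 and 131 CPM in the hippocampus, against 36.7, 33.1, 32.8, 41.5 and 30.2 CPM in the cortex, a log2 fold change of 1.58 ± 0.17, adjusted p = 0.000314. Mbp, myelin basic protein, had 4356, 3310.4, 3580.3, 2298 and 3714 CPM in the hippocampus, against 1318, 844, 1179, 1063 and 1174 CPM in the cortex, a log2 fold change of 1.63 ± 0.19, adjusted p = 0.00038. Mobp (1.57 ± 0.20, adjusted p = 0.000621) and the node protein gene Hapln2 (1.78 ± 0.25, adjusted p = 0.000909) moved alike. The summed level of the list was 3783 to 6869.6 CPM in the hippocampus and 1518 to 2224 CPM in the cortex, with no member at 0 in all libraries of either tissue. Of 7 precursor genes 1 rose, Bcas1, which is also known from newly myelinating oligodendrocytes (1.36 ± 0.19, adjusted p = 0.000796).

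Genes of tissues along the hippocampus rose too, most of all those of the choroid plexus. Of 11 choroid plexus genes tested, 8 rose and the median was 3.91. Without hippocampus sham 1 and 2, all 13 tested rose. Some members, such as Otx2 (at most 0.420 CPM in the cortex) and Prlr (at most 0.630 CPM), passed the low-count filter only through the hippocampus. The filter fixed the direction of such genes, so the counts and median of the list are no separate result for them. Ttr, which encodes the thyroid hormone carrier transthyretin of cerebrospinal fluid, had 431, 59.6, 382, 829.0 and 28.4 CPM in the hippocampus, against 3.99, 2.82, 1.84, 1.57 and 4.99 CPM in the cortex. All hippocampus libraries were above the cortex, but they spanned a wide range, with hippocampus sham 5 and 2 lowest (6.84 ± 1.05, adjusted p = 0.00695). The summed level of the 14 genes ran over 159 to 1662 CPM in the hippocampus and 104 to 144 CPM in the cortex. No member was at 0 in all libraries of either tissue. The transcription factor gene Otx2, which acts in the plexus epithelium, had 10.1, 1.78, 9.13, 8.99 and 3.53 CPM in the hippocampus, against 0.420, 0.394, 0.0635, 0.356 and 0.125 CPM in the cortex, a log2 fold change of 4.65 ± 0.56, adjusted p = 0.000419. Called genes without predicted names, without overlap and with a hippocampus mean of at least 1 CPM were ranked by fold change. The 5 highest were Ttr, Mfrp (7.19 ± 1.14, adjusted p = 0.0056), the folate receptor gene Folr1 (5.09 ± 0.90, adjusted p = 0.0106), Calml4 (5.03 ± 0.67, adjusted p = 0.0007) and the chloride channel gene Clic6 (4.70 ± 0.89, adjusted p = 0.0135). Mfrp (at most 0.197 CPM in the cortex) and Calml4 (at most 0.436 CPM) passed the low-count filter only through the hippocampus libraries, which fixed their direction. The plexus list holds Ttr, Folr1 and Clic6. Of the exon bases of Mfrp, 36.7% are shared with another gene on the same strand. The prolactin receptor gene Prlr (3.14 ± 0.46, adjusted p = 0.00114) and the Wnt modulator gene Sostdc1 (3.99 ± 0.66, adjusted p = 0.00403) rose as well.

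Ependymal genes differed less between hippocampus libraries. Foxj1 (ENSMUSG00000034227, chromosome 11, 116330704 to 116335399), the master factor of motile cilia, had 27.2, 14.3, 22.0, 16.7 and 22.4 CPM in the hippocampus, against 4.41, 4.07, 4.06, 5.13 and 6.17 CPM in the cortex, a log2 fold change of 2.09 ± 0.22, adjusted p = 0.000235. With it rose Tmem212 (2.57 ± 0.48, adjusted p = 0.00533) and the dynein light chain gene Dynlrb2 (1.81 ± 0.34, adjusted p = 0.0061), 3 of 5 tested genes in all. The summed level of the list was 30.8 to 46.3 CPM in the hippocampus and 9.32 to 14.2 CPM in the cortex, where Mia had no read. Of 10 thalamus genes, 5 rose and none fell, with a median of 1.49. Synpo2, a synaptopodin-family gene, had 33.4, 14.2, 74.0, 18.2 and 67.8 CPM in the hippocampus, against 7.13, 3.61, 4.19, 6.27 and 5.67 CPM in the cortex, a log2 fold change of 2.95 ± 0.45, adjusted p = 0.0025. Tcf7l2, a Wnt effector that marks thalamic neurons, had 16.8, 3.44, 22.5, 6.78 and 21.2 CPM in the hippocampus, against 1.15, 2.63, 2.41, 2.85 and 3.12 CPM in the cortex, a log2 fold change of 2.50 ± 0.45, adjusted p = 0.00478. Hippocampus sham 3 and 5 were the highest for both, and the summed thalamus level was 97.3 to 511 CPM in the hippocampus against 60.4 to 77.8 CPM in the cortex. Plekhg1 rose (1.53 ± 0.34, adjusted p = 0.0153). Of 10 listed medial habenula genes only 4 passed the low-count filter, and none of these rose. Nwd2 and Lrrc55 (-0.96 ± 0.26, adjusted p = 0.0417) fell. The 10 genes summed to 19.2 to 32.6 CPM against 54.0 to 72.6 CPM in the cortex. Nwd2 alone had 8.87 to 16.5 CPM against 34.0 to 51.1 CPM in the cortex and made up much of the sum. How far the choroid plexus, ependymal and thalamic levels account for other genes that were higher in the hippocampus was not tested.

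**Figure D3:**
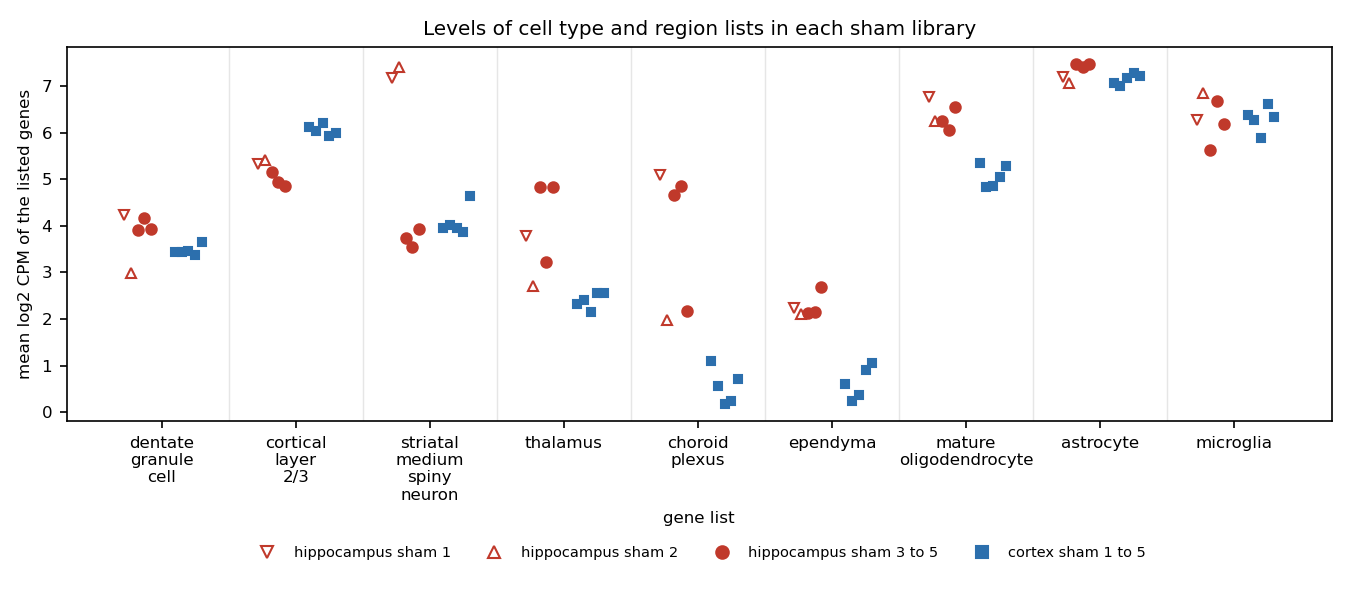
Mean log2 CPM of 9 gene lists in each sham library, hippocampus in red (open triangles: sham 1 and 2) and cortex as blue squares. Hippocampus sham 1 and 2 stand apart for striatal genes, hippocampus sham 3 and 5 are highest for thalamus genes, hippocampus sham 2 and 5 are the lowest of their tissue for choroid plexus genes, and astrocyte and microglia genes overlap between the tissues.

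Striatal genes were high in hippocampus sham 1 and 2 and not in the other hippocampus libraries. Ppp1r1b, the dopamine-regulated phosphatase inhibitor DARPP-32, had 1080.1, 1625, 181, 84.8 and 109 CPM in the hippocampus, against 156, 212, 186, 169 and 177 CPM in the cortex. Drd2, the D2 dopamine receptor gene, had 122, 202, 6.45, 4.06 and 10.05 CPM in the hippocampus, against 3.04, 5.05, 5.08, 3.35 and 15.5 CPM in the cortex. Drd1, the gene of the D1 receptor, had 45.9, 42.9, 3.53, 2.96 and 3.21 CPM in the hippocampus, against 8.81, 2.89, 5.78, 5.20 and 10.5 CPM in the cortex, and the adenosine receptor gene Adora2a had 176, 308, 3.65, 3.46 and 8.12 CPM in the hippocampus, against 6.82, 8.47, 5.59, 6.13 and 22.7 CPM in the cortex. In each, hippocampus sham 1 and 2 were above all other libraries, and edgeR called none with all libraries (adjusted p between 0.172 and 0.429). DESeq2 called Drd2, at 3.43 (adjusted p = 0.0158), and Adora2a, at 3.33 (adjusted p = 0.0464), and the edgeR fit of all 24 libraries called the same 2 genes, at 3.39 (adjusted p = 0.0129) and 3.30 (adjusted p = 0.0279). All 18 striatal genes tested had a positive fold change with all libraries (median 1.86), 2 of the 18 were called, and the median was -0.48 without hippocampus sham 1 and 2. Those 2, the G protein subunit gene Gng7 (1.62 ± 0.34, adjusted p = 0.0126) and the homeobox gene Six3 (4.03 ± 0.93, adjusted p = 0.0351), rose without the pair as well (0.76, adjusted p = 0.00906 and 2.11, adjusted p = 0.0182). The summed level was 655 to 6263 CPM over the hippocampus, 655 to 1024 CPM in hippocampus sham 3 to 5 and 833 to 974 CPM in the cortex.

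Few genes of the other glial and vascular lists were called. Of 15 astrocyte genes only Agt rose, and the median was 0.01. Gfap, the astrocyte filament gene, had 1272, 1408, 1515, 1658 and 2842 CPM in the hippocampus, against 722, 1293, 665, 1458 and 936 CPM in the cortex and was not called by edgeR with all libraries (0.78 ± 0.26, adjusted p = 0.103). It was called by edgeR without hippocampus sham 1 and 2 (0.96, adjusted p = 0.0489) and by DESeq2 with all libraries, at 0.76 (adjusted p = 0.0481). None of 12 microglia, 11 endothelium, 6 mural cell and 4 blood genes was called with all libraries. Of 8 meningeal fibroblast genes 1 fell, the collagen gene Col1a2 (-0.62 ± 0.17, adjusted p = 0.047). Col1a2 was not called without hippocampus sham 1 and 2 (-0.58, adjusted p = 0.1), where of the list none fell and 1 rose, the matrix proteoglycan gene Dcn (1.35, adjusted p = 0.000485), named after its value was seen. Of 21 interneuron genes 1 was called, Vip, a neuropeptide of disinhibitory interneurons, which had 2.14, 4.86, 5.84, 6.37 and 5.13 CPM in the hippocampus, against 15.7, 14.3, 14.8, 16.1 and 19.8 CPM in the cortex and a log2 fold change of -1.67 ± 0.23, adjusted p = 0.000802. Leaving out the pair, 2 interneuron genes rose and 2 fell.

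Receptor subunits changed in opposite directions within a family. Of 17 AMPA, NMDA and kainate subunit genes, 1 rose and 3 fell (median 0.01). The AMPA subunit gene Gria1 had 523, 216, 479.7, 650.0 and 457 CPM in the hippocampus, against 291, 175, 238, 200.1 and 226 CPM in the cortex, and only hippocampus sham 2 overlapped the cortex (1.04 ± 0.24, adjusted p = 0.0173). Gria2, the subunit that makes AMPA receptors calcium-impermeable, was lower (-0.77 ± 0.18, adjusted p = 0.0208), as was the NMDA subunit gene Grin2b, which had 74.7 to 128 CPM in the hippocampus and 137 to 197 CPM in the cortex (-0.64 ± 0.16, adjusted p = 0.0282). Grin2b was not called without hippocampus sham 1 and 2 (-0.54, adjusted p = 0.0608). Of 12 AMPA receptor auxiliary subunit genes 2 rose and 2 fell. Shisa6, which keeps AMPA receptors at the synapse, had 36.4, 5.33, 33.5, 51.6 and 23.9 CPM in the hippocampus, against 7.13, 6.43, 5.78, 6.34 and 7.23 CPM in the cortex, a log2 fold change of 2.20 ± 0.41, adjusted p = 0.00718, whereas stargazin, encoded by Cacng2, had 20.8 to 30.0 CPM in the hippocampus and 41.7 to 55.2 CPM in the cortex (-0.92 ± 0.15, adjusted p = 0.00289), and Cacng3 was lower too (-0.86 ± 0.20, adjusted p = 0.0172).

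Of 14 GABA receptor subunit genes, 1 rose and 4 fell, and 13 of 14 fold changes were negative (median -0.36). The 1 that rose was Gabra5, the extrasynaptic subunit concentrated in hippocampal pyramidal cells, named here after its value was seen. It had 65.8, 9.48, 32.2, 59.9 and 35.2 CPM in the hippocampus, against 17.1, 7.09, 11.4, 14.8 and 14.5 CPM in the cortex, with hippocampus sham 2 inside the cortex range and a log2 fold change of 1.64 ± 0.41, adjusted p = 0.0338. Gabra3 had 28.8, 23.0, 27.6, 28.5 and 23.4 CPM in the hippocampus, against 62.0, 44.2, 56.7, 55.8 and 68.0 CPM in the cortex, without overlap (-1.13 ± 0.15, adjusted p = 0.00079). Gabrb2 (-1.32 ± 0.33, adjusted p = 0.0263) was lower as well. Of 30 voltage-gated potassium channel genes 10 fell and 1 rose (median -0.25). Kcnv1, a modulatory subunit, had 14.1 to 21.9 CPM in the hippocampus and 29.5 to 44.0 CPM in the cortex (-1.06 ± 0.17, adjusted p = 0.00228), and Kcnh7 1.28 to 5.51 CPM against 12.8 to 26.5 CPM. Kcng1, also named after its value was seen, was the subunit gene that rose (0.98 ± 0.23, adjusted p = 0.0202).

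Monoamine receptor and peptide genes showed single changes of either sign. The serotonin receptor gene Htr4 had 1.84, 1.54, 2.07, 3.38 and 2.57 CPM in the hippocampus, against 0.105, 0, 0, 0.356 and 0.810 CPM in the cortex, a log2 fold change of 3.14 ± 0.66, adjusted p = 0.011. Cortex sham 2 and 3 had no read of Htr4. Its cortex levels were too low to pass the low-count filter without the hippocampus libraries, so the filter fixed its direction. The receptor gene Htr2a, an abundant serotonin receptor of cortical pyramidal cells, had 2.03 to 3.16 CPM in the hippocampus and 5.05 to 8.79 CPM in the cortex (-1.34 ± 0.24, adjusted p = 0.00452). These 2 were the only ones called of 10 serotonin receptor genes. Of 25 other amine, acetylcholine and opioid receptor genes Adra2c rose (0.89 ± 0.21, adjusted p = 0.0227), and the muscarinic gene Chrm3 (-0.73 ± 0.15, adjusted p = 0.00897) and the beta-adrenergic gene Adrb1 (-0.70 ± 0.17, adjusted p = 0.0203) fell; Adra2c was not called without hippocampus sham 1 and 2 (0.61, adjusted p = 0.0685), where 2 of the 25 rose and 5 fell. Trh, which encodes thyrotropin-releasing hormone, had 13.2, 8.53, 25.8, 18.2 and 28.01 CPM in the hippocampus, against 3.25, 3.41, 5.46, 1.21 and 1.68 CPM in the cortex, without overlap (2.65 ± 0.40, adjusted p = 0.00135). Of 20 neuropeptide genes Trh rose, Vip fell and no other was called with all libraries. Without hippocampus sham 1 and 2, 2 of 21 rose and 5 fell, among them the neuropeptide Y gene Npy (-1.23, adjusted p = 0.00235).

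**Figure D4:**
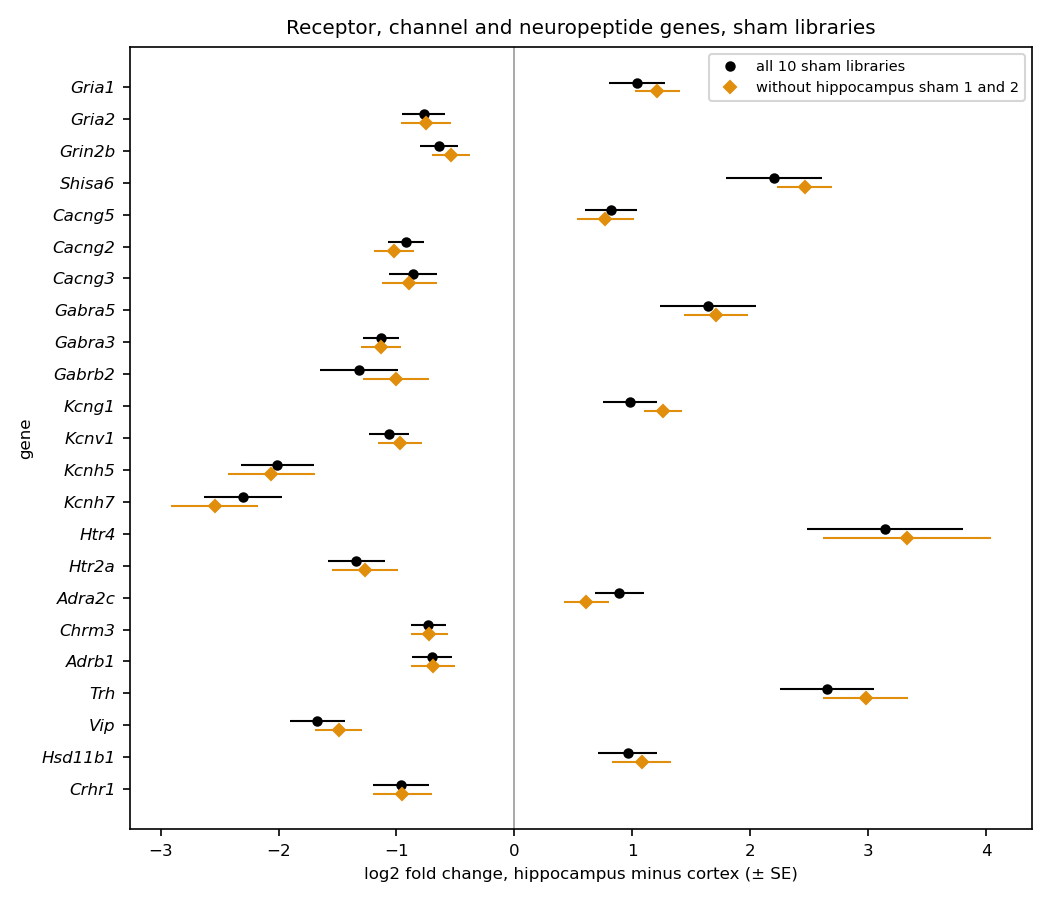
Log2 fold changes of 23 receptor, channel, peptide and stress-hormone genes, hippocampus minus cortex, with standard errors, from all 10 sham libraries (black) and without hippocampus sham 1 and 2 (orange). Each gene keeps its sign without the 2 libraries; Gria1, Shisa6, Cacng5, Gabra5, Kcng1, Htr4, Adra2c, Trh and Hsd11b1 are to the right of 0 and Kcnh7 and Kcnh5 are far to the left.

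Activity-regulated genes were lower in the hippocampus at 2 of 18 members. The zinc finger gene Egr1 had 83.9, 127, 92.3, 97.1 and 91.9 CPM in the hippocampus, against 152, 144, 182, 218 and 272 CPM in the cortex, without overlap (-0.97 ± 0.19, adjusted p = 0.00705), and Egr3 29.3 to 65.8 CPM in the hippocampus against 58.5 to 142 CPM in the cortex (-1.03 ± 0.25, adjusted p = 0.0222). Cortex sham 5 had the highest mean level of the list, 5.37 log2 CPM, against 3.86 to 4.49 in the hippocampus and 4.11 to 4.66 in the other 4 cortex libraries. Without cortex sham 5 the log2 fold changes were -0.82 (adjusted p = 0.0189) for Egr1 and -1.04 (adjusted p = 0.0476) for Egr3.

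Further genes were called by edgeR without hippocampus sham 1 and 2 and not with all libraries. The 5 higher ones of smallest p were Dsp, Vwa3b (3.71 ± 0.33, adjusted p = 2.45e-05), Spink8, the sodium-proton exchanger gene Slc9a4 (4.46 ± 0.49, adjusted p = 0.000122) and the keratin gene Krt2 (5.01 ± 0.56, adjusted p = 0.000139), none of which passed the low-count filter with all libraries. Without the pair, all 5 passed it only through hippocampus sham 3 to 5, their cortex levels being too low. The filter thus fixed their direction, and their calls are no separate result. Vwa3b had 7.35, 0.593, 4.01, 8.38 and 5.45 CPM in the hippocampus, against 0.525, 0.525, 0.444, 0.427 and 0.374 CPM in the cortex, where hippocampus sham 2 stood close to the cortex and hippocampus sham 1 did not. The 5 lower ones were Foxp1, Arhgap10, Arpp21, Mtcl1 and Rspo1. All but Arpp21 were also called by edgeR without hippocampus sham 2 alone and by the voom fit of limma with all libraries. DESeq2 called Rspo1 with all libraries, at -1.37 (adjusted p = 0.0134), and not the other 4. Arpp21, a cAMP-regulated phosphoprotein gene, had 325, 389, 77.1, 91.6 and 62.6 CPM in the hippocampus, against 275, 187, 216, 184 and 246 CPM in the cortex. Hippocampus sham 1 and 2 lay above every cortex library and hippocampus sham 3 to 5 below every one. Its log2 fold change was -0.23 ± 0.50, adjusted p = 0.854 with all libraries and -1.54, adjusted p = 0.000321 without the pair. The forkhead factor gene Foxp1 had 60.6, 95.5, 33.7, 34.6 and 28.8 CPM in the hippocampus, against 79.3, 81.8, 75.2, 77.6 and 66.8 CPM in the cortex, with -1.25, adjusted p = 0.000243 without the pair. Arhgap10 (-1.96, adjusted p = 0.000283) and Mtcl1 (-1.43, adjusted p = 0.000327) showed the same order, with hippocampus sham 1 and 2 close to the cortex and hippocampus sham 3 to 5 below it.

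The regional comparison was repeated in the bulbectomy libraries, which share no library with it. Against 448 higher and 417 lower genes in sham mice, bulbectomised mice had 295 and 251 of 14013 (2.11% and 1.79%). The bulbectomy counts depended on single libraries and reached 759 higher and 1302 lower without cortex bulbectomy 4, and were lowest in total (206) without cortex bulbectomy 2. Of 445 sham-higher genes tested in both, 439 had a positive and 183 (41.1%) a called fold change after bulbectomy. Of 401 sham-lower genes, 396 had a negative and 138 (34.4%) a called one, and none of either list was called in the other direction. Of all 13723 genes tested in both, 76.4% had the same sign. Of the 10 higher and 10 lower genes of smallest p in sham, 9 and 8 were called in the same direction after bulbectomy, with Tppp3 (0.86, adjusted p = 0.154) and Rorb (-0.92, adjusted p = 0.112) among those not called there. Among the hippocampal field and layer genes called in both, the fold changes after bulbectomy were 2.21, adjusted p = 0.00666 for Prox1, 3.41, adjusted p = 0.000935 for C1ql2, 3.36, adjusted p = 4.74e-05 for Fibcd1, 2.23, adjusted p = 6.06e-05 for Calb2 and -1.82, adjusted p = 0.00115 for Tbr1. Necab2 (0.57, adjusted p = 0.244) and Cacng5 (0.78, adjusted p = 0.123), called in sham, were not called after bulbectomy, where 1 of 6 CA2 genes rose. Trh was not called there (0.71, adjusted p = 0.413), nor was any of the 9 serotonin receptor genes tested there. In bulbectomised mice Zbtb20 was called higher in the hippocampus (1.21, adjusted p = 0.0212), and Nr3c2 was not called (0.92, adjusted p = 0.126). The striatal list had a median of -0.47 there, with 1 gene called in each direction among 19. Choroid plexus genes rose in 13 of 14 cases and thalamus genes in 8 of 11. There too, the low-count filter can pass a gene through the hippocampus libraries alone. Of 9 medial habenula genes tested after bulbectomy 6 rose and 1 fell, where in sham none of 4 rose and 2 fell; 5 of the 6 did not pass the low-count filter in sham, and the difference of the list was not tested. The difference between the regional effects, tested as an interaction over the hippocampus and cortex libraries of both treatments, was called for 0 of 15072 genes by edgeR; 432 (2.87%) had an unadjusted p under 0.05, and DESeq2 called 5. Chosen by that call, they were Ecel1, Gm5741 and the calcium-activated chloride channel gene Ano2, the nicotinic receptor gene Chrnb4, which is on the habenula list, and the nuclear receptor gene Rora, with interactions (bulbectomy minus sham) of -3.20, 6.76, -2.28, 4.08 and 1.67. A difference of the regional effect after bulbectomy was thus not detectable for any gene named above with edgeR.

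**Figure D5:**
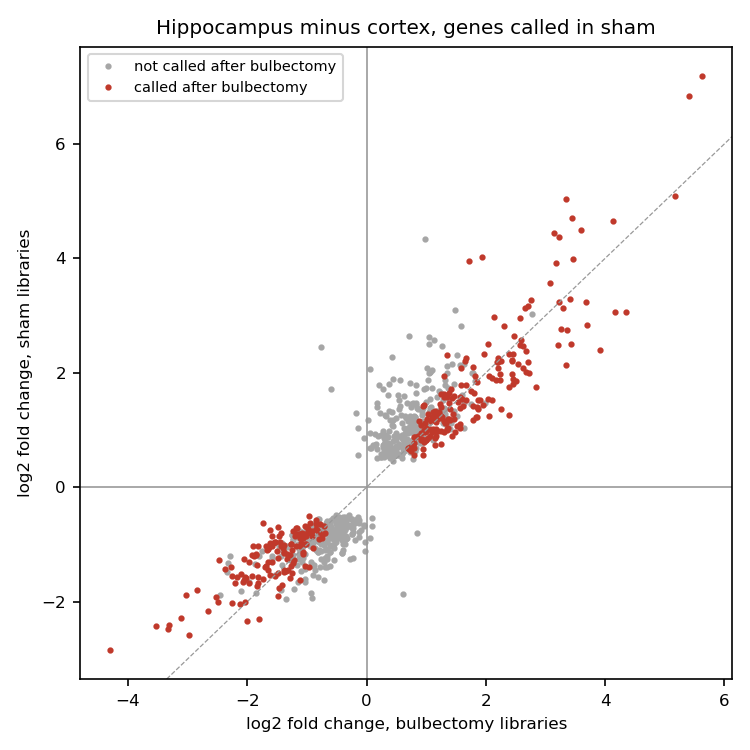
Hippocampus minus cortex log2 fold changes of the 846 genes called in sham and tested in both treatments, sham on the vertical and bulbectomy on the horizontal axis; the 321 genes also called after bulbectomy are red, the dashed line marks equal values. Most points lie in the quadrants of equal sign.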

How the data were processed

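RNA was sequenced as poly(A)-selected, single-end libraries, per the labels. The authors deposited a table of raw read counts per gene for each library; the counts came from Trimmomatic, STAR and featureCounts on mm10, per the submitters' processing notes. Their versions, the annotation release and the strand setting are not stated. Read assignment totals and rows naming no gene were left out; these took 2.62% to 3.96% (no feature) and 3.92% to 4.55% (ambiguous) of reads. Gene symbols and coordinates were matched by identifier to GENCODE M21 on GRCm38 (55227 of 55487 identifiers) and promoters are from RefSeq.

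The 5 hippocampus and 5 cortex sham libraries were compared with edgeR 4.0.16 in R 4.3.3: filterByExpr (minimum count 10), trimmed mean of M-values scaling, robust quasi-likelihood fit, two-sided test and Benjamini-Hochberg adjustment over all 14271 genes tested, called at an adjusted p under 0.05. Standard errors are the absolute log2 fold change over the root of F. Every adjusted p in the report is from this test unless another is named. Mean log2 CPM used a prior count of 2. The bulbectomy libraries (4 and 3) were fitted alike, and the interaction over 4 groups. Code was tested on simulated data with known changes.

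Genes named were the 10 of smallest p in each direction, the 5 of largest fold change in each direction without overlap and with a mean of at least 1 CPM, the 5 in each direction called only without hippocampus sham 1 and 2, up to 3 of smallest p in each of 43 gene lists, and 20 tissue-defining genes; some of these are not reported here. The members and lists were chosen with earlier results of these data known. Lists are described by counts and medians. Alternatives were DESeq2 1.42.0, limma 3.58.1 (voom), other scalings and filters, a 1.5-fold threshold, a fit of all 24 libraries, thinning of the deepest library to 10073878 reads, removal of a length and GC trend, a replicate block and leaving out libraries. No pair of libraries was alike to within sampling noise (lowest chi-square per degree of freedom 17.4). The labels give groups the same replicate numbers without saying what a number marks.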

Additional observations from a re-analysis of the deposited data

Results flagged for a closer look

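Of 314 groups of 5 libraries checked (114 genes and 43 lists in each tissue), 26 had 1 library far from the other 4, where chance gives about 1 in 20. What lies behind these values was not tested.

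Hippocampus sham 2 stood apart in 9 of them. Its mean log2 CPM was 2.98 for dentate granule cell genes (other hippocampus libraries 3.90 to 4.24), 3.51 for CA3 genes (4.18 to 4.27), 5.05 for AMPA, NMDA and kainate receptor genes (5.40 to 5.50) and 3.84 for Eph and ephrin genes (4.12 to 4.17). It had 8.06 CPM of Homer3 (others 21.4 to 26.3), 15.3 CPM of Rspo1 (1.70 to 4.67), 16.9 CPM of Stard8 (12.9 to 13.8), 65.4 CPM of Npy (23.8 to 33.9) and 1.66 CPM of Igfbpl1 (0.918 to 1.07). Its Rspo1 and Homer3 levels lay inside the cortex range.

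Hippocampus sham 3 had 125 CPM of Pou3f1 (others 72.8 to 77.1), 0.487 CPM of Kcnh5 (1.30 to 1.53) and a layer 4 mean of 2.23 log2 CPM (2.58 to 2.69). Hippocampus sham 1 had 515 CPM of Mobp (274 to 329) and a mitochondrial-encoded mean of 13.76 log2 CPM (12.37 to 12.75). Hippocampus sham 4 had 43.2 CPM of Tppp3 (66.4 to 74.1). Hippocampus sham 5 had 2842 CPM of Gfap (1272 to 1658) and an ependyma mean of 2.68 log2 CPM (2.10 to 2.24).

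Cortex sham 5 was high for striatal genes, with a mean of 4.64 log2 CPM (other cortex libraries 3.87 to 4.02), 15.5 CPM of Drd2 (3.04 to 5.08) and 22.7 CPM of Adora2a (5.59 to 8.47), and for dentate genes, with 3.66 log2 CPM (3.37 to 3.45). Cortex sham 3 had 42.4 CPM of Stard8 (32.4 to 34.3), 31.2 CPM of Kcng1 (20.5 to 23.1) and 39.8 CPM of Adra2c (25.9 to 29.4). Cortex sham 2 had 0.525 CPM of Krt2 (0 to 0.127), and cortex sham 1 had an Eph and ephrin mean of 3.92 log2 CPM (4.06 to 4.12).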

How the results depend on the processing

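Of 90 called genes checked, 85 were still called without hippocampus sham 1 and 2. In every fit without 1 library that gave a value, 67 were called, and 53 under every alternative that gave a value. None changed sign. In sham, DESeq2 called 1301 genes (658 lower) and voom 1350 (693 lower), the 1.5-fold threshold left 190 (122 higher, 68 lower), and the fit of all 24 libraries gave 254 lower. Leaving out 1 library gave 565 to 1015 genes (294 to 545 higher, 244 to 549 lower). After bulbectomy, DESeq2 called 950 (450 higher, 500 lower) and no filter 1345 (492, 853), and leaving out 1 library gave 206 to 2061 (115 to 759 higher, 83 to 1302 lower). DESeq2 called 5 interactions. List members called numbered 115, 173 without hippocampus sham 1 and 2, 55 with the fold threshold and 91 to 156 without 1 library. The cause of these shifts was not tested.

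Without hippocampus sham 1 and 2 these values changed sign: the striatal median (-0.48), Drd1 (-1.07), Ppp1r1b (-0.55), Adora2a (-1.02), the serotonin receptor (-0.12), microglia (-0.05) and mural cell (0.01) medians and the Wnt median (0.12; -0.32 to 0.07 without 1 library, above 0 without hippocampus sham 2). Voom gave -0.02 for Drd1. The habenula median was 0.04 without a filter and 0.06 with all 24 libraries, and the serotonin receptor median -0.14 to 0.27 without 1 library, below 0 without hippocampus sham 3.

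With the replicate number as a block, 513 genes were higher and 611 lower (1124 in all). Deviations of libraries of the same number correlated at 0.366, 0.323, 0.575, 0.285 and -0.167, not every library correlated best with its own number, and the labels do not say what a number marks, so the pairing was not used. The block over numbers 3 to 5 gave 442 higher and 470 lower, and -1.08 for Drd1, -0.03 for Drd2, -0.59 for Ppp1r1b, -1.0 for Adora2a, -0.01 for Wfs1, -0.51 for the striatal, 0.32 for the cerebellar granule cell and -0.30 for the serotonin receptor median. Depth limits low genes most in hippocampus sham 1, where 3 reads equal 0.918 CPM.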
